A study of Mus musculus with 13 samples.

Results

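The 10 genes described here make and load the major histocompatibility complex (MHC) class I molecule, and they were followed in 13 mouse NUT carcinomas (NC). They were taken as a named list, all 10 were found among the 55332 genes with values, and all 10 passed the filter on low counts in every comparison. All tumors carried NCT+/-, a Cre-dependent allele from which the tumors arise, and each tumor was 1 library. The oral Sox2 WT tumors (n = 4) were labelled KRT14-Cre; NCT+/-, and the oral Sox2 KO tumors (n = 2) KRT4Cre; NCT+/-; Sox2fl/fl, so the written Cre name also differs between them. The paper names KRT14-Cre for the oral KO mice as well. The pancreatic Sox2 WT tumors (n = 4) were labelled Pdx1-Cre; NCT+/-, and the pancreatic Sox2 KO tumors (n = 3) additionally carried both floxed Sox2 alleles. Cre acts in keratin-expressing epithelium or in pancreatic progenitors, so tumor site and Cre driver cannot be told apart. Ages, strain and H2 haplotype were not given in the sources used here.

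A class I molecule is a polymorphic heavy chain held to beta-2 microglobulin, and it shows peptides from inside the cell to CD8 T cells. Peptides are cut by the proteasome, whose interferon-inducible catalytic subunits form the immunoproteasome, and are pumped into the endoplasmic reticulum by the transporter TAP, where tapasin holds the empty class I molecule next to the pump. NLRC5 is the class I transactivator, a nuclear protein that is recruited to the promoters of heavy chain, B2m, TAP and immunoproteasome genes, and interferon gamma raises most of these genes together. Loss of class I expression is a common feature of carcinomas and lowers their visibility to T cells.

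On GRCm38, 8 of the 10 genes lie on chromosome 17 within 2.12 Mb, from Tapbp to H2-T23. Psmb9, Tap1, Psmb8 and Tap2 are packed into 34.3 kb (chr17:34181987-34216321), and the annotated Psmb9 and Tap1 genes overlap by 212 bases on opposite strands, which the strand-specific counting separates. B2m is on chromosome 2 (chr2:122147686-122153083). Nlrc5 is on chromosome 8 (chr8:94434356-94527272).

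Upstream sequences of some members are shown, and any part of theirs in how members moved from tumor to tumor, described further on, was not tested. RefSeq starts on GRCm38.p6 were available for 8 members, and the 250 bases before the start were searched on both strands. The capitals in the lines that follow mark 4 motifs, the interferon-stimulated response element core (GAAA, any 2 bases, GAAA), the kappa B site (GGGGA followed at once by TTCCCC), the X2 box core TGACG and the Y box ATTGG, or their reverse complements.
B2m, chr2:122147437-122147686, plus strand: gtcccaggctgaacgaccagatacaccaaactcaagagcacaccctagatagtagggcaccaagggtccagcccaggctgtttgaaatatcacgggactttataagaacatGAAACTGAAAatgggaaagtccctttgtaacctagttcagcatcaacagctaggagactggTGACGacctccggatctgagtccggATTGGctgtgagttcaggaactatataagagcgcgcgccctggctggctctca
H2-K1, chr17:34000348-34000597, minus strand: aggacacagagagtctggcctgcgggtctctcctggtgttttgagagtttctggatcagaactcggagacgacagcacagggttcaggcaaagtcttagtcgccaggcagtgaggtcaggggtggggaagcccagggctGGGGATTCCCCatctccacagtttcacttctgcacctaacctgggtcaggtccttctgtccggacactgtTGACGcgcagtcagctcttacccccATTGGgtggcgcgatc
H2-D1, chr17:35262844-35263093, plus strand: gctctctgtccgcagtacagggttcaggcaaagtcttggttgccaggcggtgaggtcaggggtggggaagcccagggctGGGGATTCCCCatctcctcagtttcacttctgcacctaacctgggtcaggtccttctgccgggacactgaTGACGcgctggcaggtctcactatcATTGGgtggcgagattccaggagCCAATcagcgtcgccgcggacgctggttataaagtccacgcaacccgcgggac
Psmb9 to Tap1, between the starts, chr17:34187331-34187555, plus strand: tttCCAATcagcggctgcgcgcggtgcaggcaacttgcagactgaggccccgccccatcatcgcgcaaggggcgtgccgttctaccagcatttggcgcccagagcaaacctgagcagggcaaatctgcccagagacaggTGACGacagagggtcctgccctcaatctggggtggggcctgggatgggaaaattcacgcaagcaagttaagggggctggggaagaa
H2-T23, chr17:36032702-36032951, minus strand: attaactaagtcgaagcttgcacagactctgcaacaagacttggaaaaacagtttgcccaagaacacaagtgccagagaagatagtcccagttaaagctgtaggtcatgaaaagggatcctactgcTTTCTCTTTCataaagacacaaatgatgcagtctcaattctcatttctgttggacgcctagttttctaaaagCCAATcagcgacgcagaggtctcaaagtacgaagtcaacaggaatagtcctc

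By the RefSeq starts, the sequence between Psmb9 and Tap1 is 225 bases long and lies upstream of both, whereas their GENCODE gene spans overlap, as given above. The kappa B site was found in H2-K1 and H2-D1 and in 0.0304% of 32851 upstream windows, and these 2 upstream regions were identical at 166 of 190 aligned bases. An X2 core followed after 20 bases by a Y box, a spacing chosen after these sequences were seen, was present in B2m, H2-K1 and H2-D1 and in 0.0913% of windows. The interferon element core, as spelled above, was found in B2m and H2-T23 against 2.98% of windows. Interferon elements with other letters were not searched for, so the other windows are not shown to lack one. The shorter motifs are common, the Y box occurring in 7 of 8 members against 33.8% of windows and the X2 core in 5 of 8 against 17.8%. The windows of Psmb8 and Tapbp are not printed. Psmb8 held none of these motifs, and within groups it had r = 0.94 to the mean of the other members. Tapbp held the Y box alone (r = 0.45). H2-T23, with the interferon element core and a Y box, had r = 0.24. A match to these letters is a description of the sequence and does not show binding.

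Total estimated counts ran from 11735315 to 20432164 in the oral KO tumors, from 29394258 to 46134830 in the WT tumors and from 89562790 to 120482829 in the pancreatic KO tumors. Sox2 had 410 to 1487 counts in each WT tumor and at most 2 in each KO tumor. Oral KO tumor 1 stood apart, with 59.5% of its counts in protein-coding genes against 84.5% to 91.7% in the other 12 tumors. Both oral KO tumors also held skeletal muscle RNA, the 5 muscle markers summing to 4600 and 2681 CPM (counts per 1000000 of the scaled library total). Most of it was the marker Ttn, at 4130 and 2538 CPM. The sum was 384 CPM in oral WT tumor 4 and 3.29 to 4.78 CPM in the other oral WT tumors. The squamous markers summed to at least 4153 CPM in every tumor, and the acinar markers were low in the pancreatic tumors, at 3.91 to 13.6 CPM except for 225 CPM in 1 KO tumor. These are whole tumors, in which fewer cells of a type and less RNA per cell cannot be told apart.

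The class I genes were expressed in every tumor, and together took between 0.0719% (oral KO tumor 1) and 0.445% (oral WT tumor 4) of all counts. Per kilobase of exon, B2m was the highest in each of the 4 groups, followed by H2-D1, H2-K1 and Tapbp. In the pancreatic WT tumors the means were 611 ± 178 CPM per kb for B2m, 182 ± 79.3 for H2-D1, 59.7 ± 22.5 for H2-K1 and 38.7 ± 7.55 for Tapbp (SD, n = 4). There, B2m, H2-D1 and Tapbp each lay clear of the gene next in order, whereas H2-K1 overlapped with Tapbp. In the oral WT tumors each gene overlapped with the next in order. Nlrc5, the transactivator, was at 1.08 to 9.83 CPM per kb as a group mean.

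**Figure D1:**
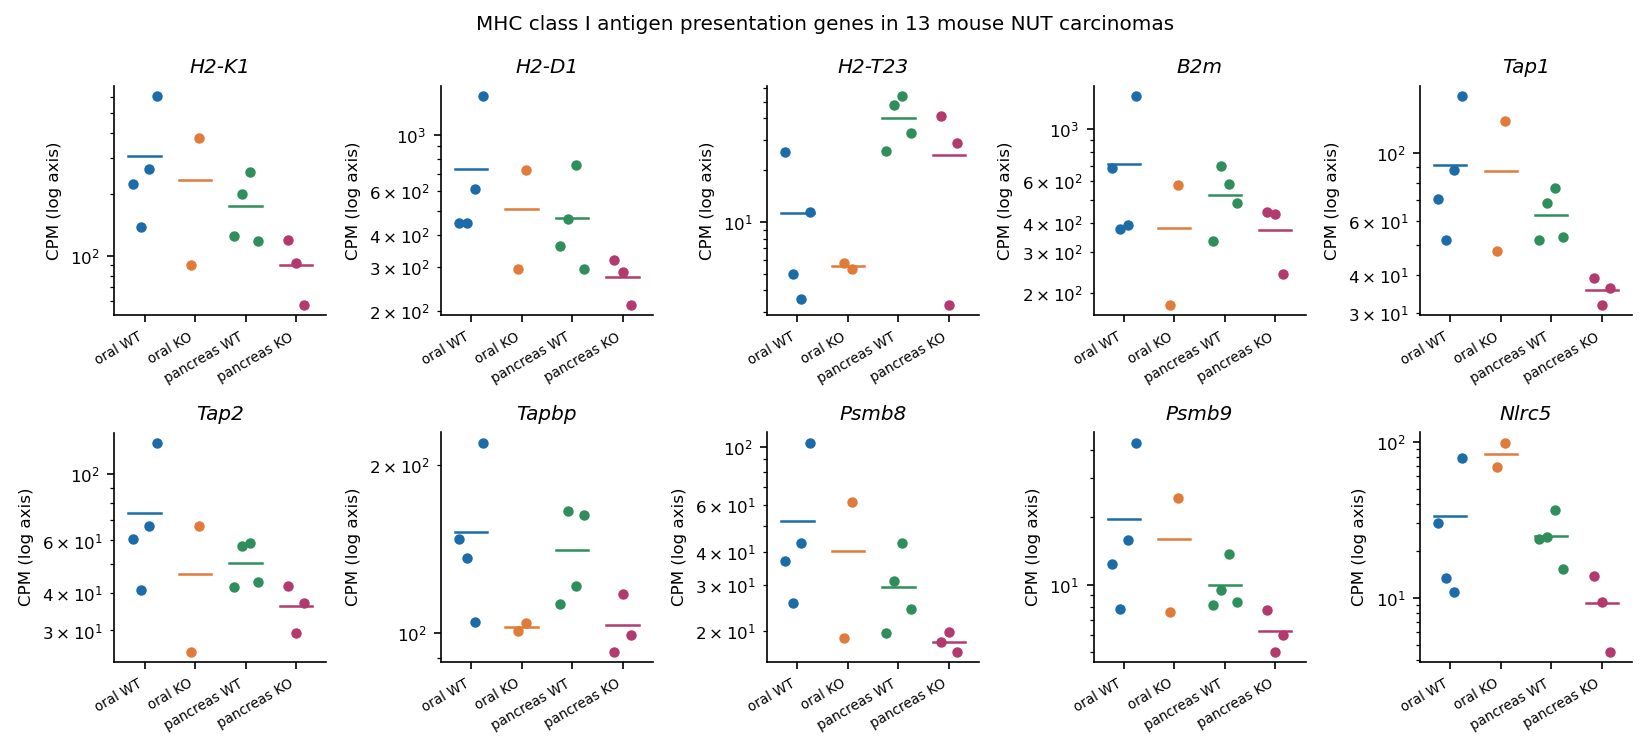
Level of each of the 10 genes in the 13 tumors, in CPM on a log axis whose range differs between panels; each point is a tumor and each bar the mean of its group. Oral WT tumor 4 is the highest of 13 in 8 panels, and the pancreatic KO tumors lie below all pancreatic WT tumors for Tap1, Psmb9 and Nlrc5.

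The heavy chains were examined first. H2-K1, which encodes a classical heavy chain, was at 224, 137, 264 and 601 CPM in the oral WT tumors and at 90.2 and 378 CPM in oral KO tumors 1 and 2. In the pancreas it was at 125, 201, 257 and 118 CPM in the WT tumors and at 119, 92.4 and 57.4 CPM in the KO tumors. Of the oral KO tumors, 1 lay below all WT tumors and the other above 3 of them, while in the pancreas the highest KO tumor was level with the lowest WT tumor and the others lay below. H2-D1, the other classical heavy chain, was at 446, 448, 609 and 1415 CPM in the oral WT tumors and at 294 and 724 CPM in oral KO tumors 1 and 2. Its pancreatic values were 362, 462, 757 and 293 CPM in the WT tumors and 319.5, 287 and 212 CPM in the KO tumors, again overlapping. H2-K1 and H2-D1 shared 11.1% and 13.8% of their 31-base sequences with each other, and 22.8% and 26.7% with any other gene, so part of their reads could be assigned to more than 1 gene.

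H2-T23 encodes the non-classical heavy chain Qa-1, which presents leader peptides to inhibitory receptors of natural killer and T cells. It had 25.4, 4.99, 3.55 and 11.4 CPM in the oral WT tumors and 5.76 and 5.35 CPM in oral KO tumors 1 and 2. In the pancreas it had 25.9, 48.0, 53.5 and 32.8 CPM in the WT tumors and 40.9, 3.29 and 28.9 CPM in the KO tumors. Pancreatic KO tumor 2 was therefore lower than every oral tumor, and the other pancreatic tumors were all above every oral tumor. Relative to H2-D1 in the same tumor, H2-T23 was at 5.69% in oral WT tumor 1, 0.582% to 1.96% in the other 5 oral tumors, 1.15% in pancreatic KO tumor 2 and 7.07% to 13.6% in the other 6 pancreatic tumors. H2-T22, a neighbouring class I gene named after its values were seen, had 21.5 CPM in oral WT tumor 1, 3.24 to 16.3 CPM in the other oral tumors, 2.49 CPM in pancreatic KO tumor 2 and 10.8 to 22.9 CPM in the other pancreatic tumors. H2-T10, another neighbour, did not follow this pattern, being at 9.71 CPM in oral WT tumor 1 and 9.53 to 46.7 CPM in the other oral tumors, and at 6.504 CPM in pancreatic KO tumor 2 against 2.92 and 3.18 CPM in the other pancreatic KO tumors. H2-T22 shared 3.27% of its 31-base sequences with H2-T23 and 47.2% with H2-T10, and what sets these tumors apart was not tested.

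B2m encodes the light chain of every class I molecule. It was at 687, 375, 392 and 1381 CPM in the oral WT tumors and at 178 and 579.8 CPM in oral KO tumors 1 and 2. Its pancreatic values were 335, 695, 586 and 486 CPM in the WT tumors and 442, 435 and 241 CPM in the KO tumors. The groups overlapped in both tissues, and B2m shared no 31-base sequence with another gene.

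The transporter genes followed. Tap1, which encodes the first chain of the peptide pump, was at 52.0, 68.9, 76.6 and 53.2 CPM in the pancreatic WT tumors and at 39.05, 31.9 and 36.3 CPM in the KO tumors. The KO tumors were lower with no overlap, as for 8.75% of all genes. In the oral tumors it was at 70.9, 52.0, 88.2 and 153 CPM (WT) and at 47.9 and 127 CPM (KO). Tap2, the other chain, was at 42.0, 57.3, 58.8 and 43.5 CPM in the pancreatic WT tumors and at 42.3, 29.4 and 37.0 CPM in the KO tumors. Its oral values were 60.9, 41.0, 67.0 and 127 CPM (WT) and 25.5 and 67.1 CPM (KO). Although the 2 chains pair in the protein, the ratio of Tap2 to Tap1 separated the genotypes in each tissue, at 0.759 to 0.859 in the oral WT tumors against 0.533 and 0.528 in the oral KO tumors, and at 0.768 to 0.832 in the pancreatic WT tumors against 0.922 to 1.08 in the pancreatic KO tumors. The ratio was lower in the oral KO tumors and higher in the pancreatic KO tumors, a pattern picked out after the values were seen and not tested.

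Tapbp encodes tapasin and was the steadiest member, with a 2.36-fold range over all tumors. It was at 147, 136, 105 and 219 CPM in the oral WT tumors and at 101 and 104 CPM in oral KO tumors 1 and 2, the higher KO tumor lying just under the lowest WT tumor. In the pancreas it was at 113, 165, 121 and 163 CPM (WT) and at 92.6, 117 and 99.3 CPM (KO), which overlap.

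Psmb8 and Psmb9 encode catalytic subunits of the immunoproteasome. Psmb8 was at 36.8, 25.5, 43.3 and 103 CPM in the oral WT tumors and at 18.8 and 61.4 CPM in oral KO tumors 1 and 2. Pancreatic WT tumors had 19.7, 31.02, 43.0 and 24.2 CPM and KO tumors 18.2, 19.8 and 16.7 CPM, so that 1 KO tumor overlapped the lowest WT tumor. Psmb9 was at 12.4, 7.82, 15.8 and 42.8 CPM (oral WT), 7.55 and 24.4 CPM (oral KO), 8.14, 9.51, 13.7 and 8.38 CPM (pancreatic WT) and 7.74, 5.05 and 5.95 CPM (pancreatic KO). The ratio of Psmb9 to Psmb8 stayed between 0.255 and 0.424 in all 13 tumors, and did not separate the genotypes in either tissue.

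Nlrc5, the transactivator, was the member that varied most, with a 21.7-fold range over the 13 tumors. It was at 30.03, 13.3, 10.9 and 78.7 CPM in the oral WT tumors and at 69.0 and 98.0 CPM in oral KO tumors 1 and 2. In the pancreatic tumors it was at 23.8, 24.3, 36.6 and 15.3 CPM (WT) and at 13.8, 9.31 and 4.52 CPM (KO). Oral KO tumor 1 lay above 3 of the 4 oral WT tumors and oral KO tumor 2 above all 4. In contrast, all pancreatic KO tumors lay below all pancreatic WT tumors, as for 8.75% of all genes. Oral KO tumor 1 had the lowest B2m level of the 13 tumors and an Nlrc5 level above that of 10 others.

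The question put by the knockout is whether loss of Sox2 changed these levels within a tissue. In the pancreas all 10 genes had lower fitted levels in the KO than in the WT tumors, where 47.4% of all genes did, with log2 fold changes from -0.43 (Tapbp) to -1.43 (Nlrc5) and a median of -0.69, against 0.02 over all genes tested. None of the 10 passed the test at an adjusted p under 0.05, and 0.706% of all 24653 genes did (edgeR quasi-likelihood test, Benjamini-Hochberg adjustment), a share of 0.175% (without WT tumor 3) to 1.22% (without WT tumor 4) when a tumor was left out. Tap1 came closest, with a log2 fold change of -0.80 ± 0.16 (SE) and an adjusted p of 0.0752. The fold change was -1.43 ± 0.41 for Nlrc5 (adjusted p = 0.159) and -0.96 ± 0.34 for H2-K1 (adjusted p = 0.235). At an unadjusted p under 0.05, 8 of the 10 genes were lower, all but H2-T23 (-0.70 ± 0.71) and B2m (-0.49 ± 0.29), against 8.77% of all genes lower at that level. The KO and WT tumors did not overlap for Tap1, Psmb9 and Nlrc5, 3 of 10, where 8.75% of all genes were lower without overlap. By the DESeq2 Wald test Tap1 (adjusted p = 0.0025) and Nlrc5 (adjusted p = 0.0148) passed as lower. By that test 1143 of all 24653 genes passed as lower and 568 as higher. Because the members vary together across tumors, these 10 genes are not 10 separate observations.

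**Figure D2:**
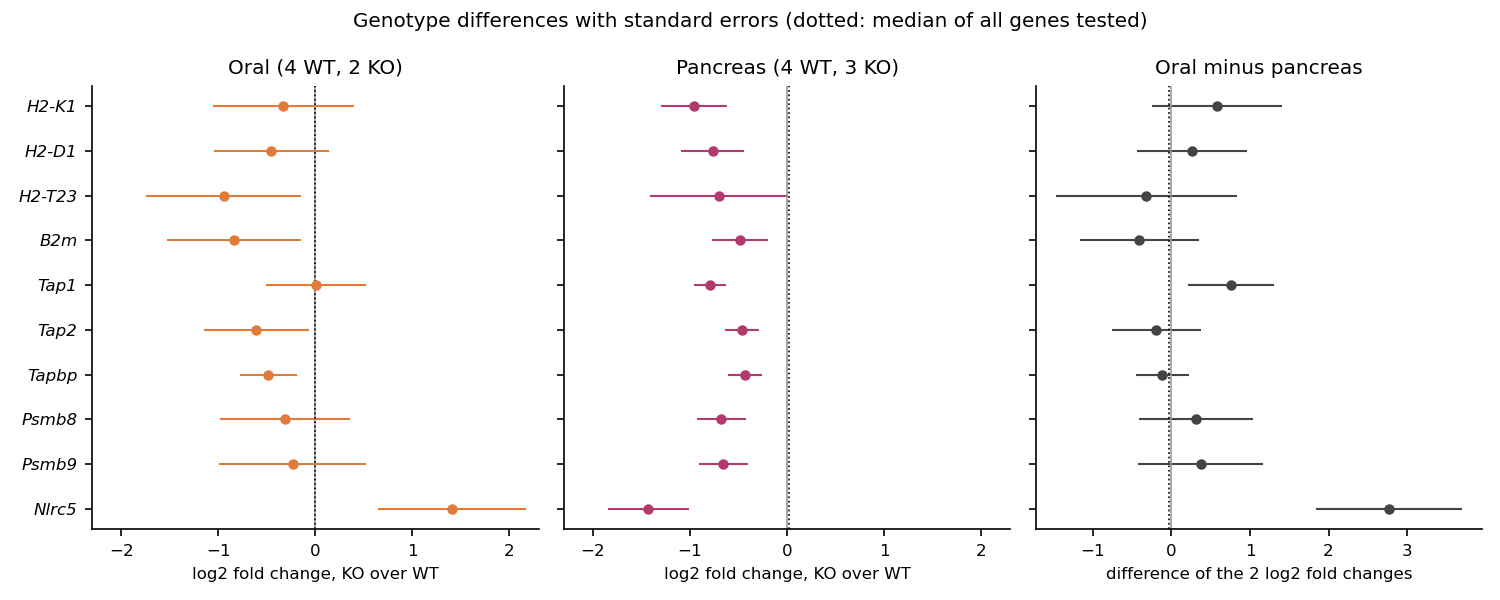
Log2 fold change of KO over WT for each gene in the oral and pancreatic tumors, and the difference between the 2 tissues, with the standard error of the edgeR fit as bars and the median of all genes tested as a dotted line. All 10 pancreatic points lie below 0, from -0.43 to -1.43, and in the right panel Nlrc5 stands at 2.77 while the others lie between -0.41 and 0.76.

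In the oral tumors 8 genes had lower and 2 had higher fitted levels in KO, where 50.1% of all genes were lower, and none passed the test, where 13.8% of all 22342 genes did. That share itself ranged from 0.163% (without oral WT tumor 2) to 13.4% (without oral WT tumor 4) when a tumor was left out, and was 0.324% without oral WT tumor 1, 0.217% without oral KO tumor 1 and 0.592% without oral KO tumor 2. The log2 fold changes ran from -0.95 ± 0.80 for H2-T23 to 1.41 ± 0.76 for Nlrc5 (adjusted p = 0.232, the smallest of the 10), with a median of -0.39. None of the 10 had an unadjusted p under 0.05 against 35.4% of all genes. None passed by the DESeq2 Wald test, where 2777 of all 22342 genes passed as higher and 2401 as lower. The median of all protein-coding genes tested was -0.21, that of all genes -0.003. Tapbp was lower in both KO tumors without overlap (-0.48 ± 0.29, adjusted p = 0.267), as 25.5% of all genes were. The oral values rest on KO tumors that differed from each other. The B2m fold change was -0.23 when KO tumor 1 was left out and -1.88 when KO tumor 2 was left out, and that of H2-K1 was 0.36 and -1.65. Nlrc5 passed (2.29, adjusted p = 0.0301) when oral WT tumor 4 was left out. The part of muscle RNA and of the low coding share in these values was not tested.

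The difference between the tissues was tested in 1 fit of all 13 tumors. No member passed, where 15.3% of all genes did, and 1 of 10, Nlrc5, had an unadjusted p under 0.05 against 34.0% of all genes. Nlrc5 had the largest difference, 2.77 ± 0.93 on the log2 scale (oral minus pancreatic change, adjusted p = 0.0623). It passed as higher by the DESeq2 Wald test (adjusted p = 0.017), where 2882 of all 25836 genes passed as higher and 3259 as lower. Nlrc5 also passed without oral WT tumor 4 (3.65, adjusted p = 0.0113), where 18.8% of all genes did. The other 9 differences lay between -0.41 ± 0.76 (B2m) and 0.76 ± 0.55 (Tap1), with adjusted p from 0.351 to 0.874.

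Relative to its targets, Nlrc5 was at 38.7% and 16.9% of the B2m level in the oral KO tumors, in CPM of the same tumor and without scaling to gene length. It was at 2.79% to 5.70% in the oral WT tumors, 3.15% to 7.09% in pancreatic WT and 1.87% to 3.12% in pancreatic KO. The oral KO values were above those of all other tumors, and the pancreatic KO values below those of all pancreatic WT tumors. Both orders held against H2-K1, Nlrc5 being at 76.5% and 25.9% of it in the oral KO tumors, 4.13% to 13.4% in the oral WT tumors, 12.1% to 19.0% in pancreatic WT and 7.86% to 11.6% in pancreatic KO. Against Tap1 the oral KO tumors were again above all others, at 144% and 77.1%, but the pancreatic groups overlapped, at 28.8% to 47.7% in WT and 12.4% to 35.4% in KO. Per kilobase of exon Nlrc5 was below Tap1 in oral KO tumors 1 and 2, at 8.12 and 11.5 against 8.74 and 23.2 CPM per kb. The share of counts in loci that GENCODE classes as TEC, models awaiting experimental checks, was 5.42% and 1.11% in oral KO tumors 1 and 2 and 0.363% to 0.691% in the oral WT tumors, and its part in the ratio was not tested.

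**Figure D3:**
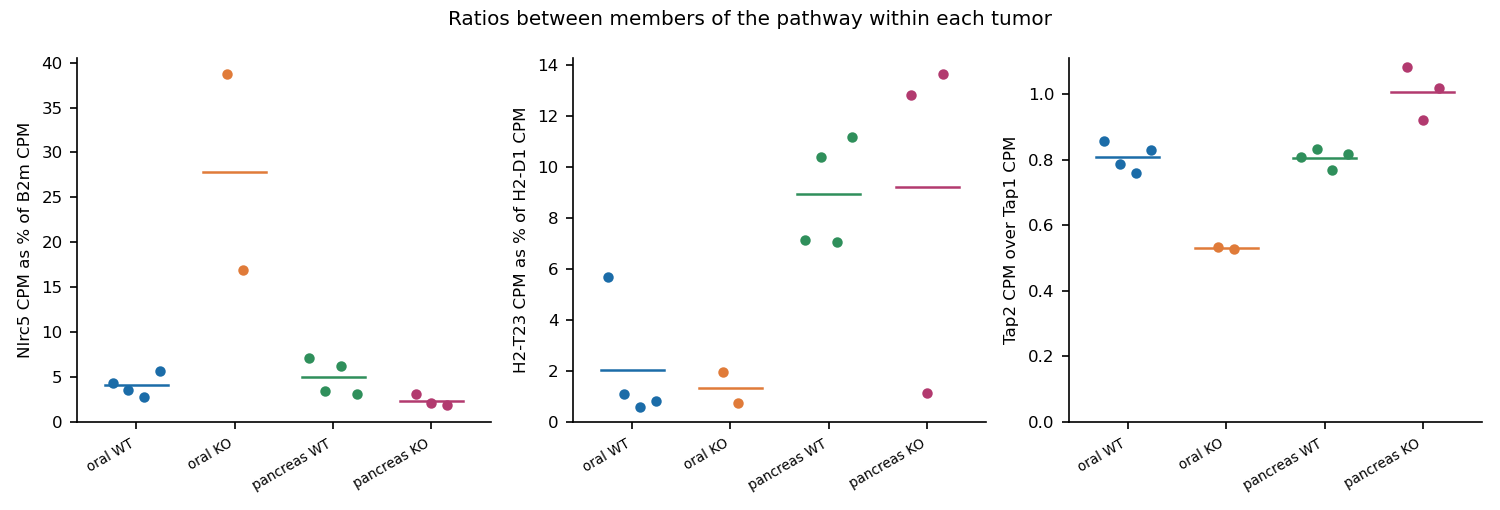
Ratio of Nlrc5 to B2m, of H2-T23 to H2-D1 (both in percent of CPM) and of Tap2 to Tap1 in each tumor, with group means as bars. Both oral KO tumors stand above all others in the left panel, at 38.7% and 16.9%, and below all others in the right panel, at 0.533 and 0.528; in the middle panel 1 pancreatic KO tumor (1.15%) lies among the oral tumors.

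The level of class I mRNA without deletion was compared between the sites in the WT tumors, which also serve in the genotype comparisons. The oral WT tumors had higher fitted levels for 9 genes and a lower one for H2-T23, with a median of 0.55 and 49.7% of all genes lower, and none passed, where 23.7% of all 23164 genes did. At an unadjusted p under 0.05, 1 of 10 genes differed against 36.8% of all genes. This was H2-T23, by -1.82 ± 0.59 (adjusted p = 0.0546), and all 4 oral WT tumors were below all 4 pancreatic WT tumors, as for 13.8% of all genes. H2-T23 passed as lower by the DESeq2 Wald test (adjusted p = 0.00503), where 3246 of all 23164 genes did. It also passed without robust dispersions (adjusted p = 0.0485), where 2700 genes were called lower. Without oral WT tumor 1 it passed as well (-2.58, adjusted p = 0.00923), where 20.6% of all genes did in either direction. The other genes ranged from 0.11 ± 0.23 (Tapbp) to 0.99 ± 0.49 (Psmb9), and their groups overlapped.

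Within groups, most members moved together from tumor to tumor. After the mean of its group was subtracted from each log2 CPM value, the 45 pairs of members had a median Pearson r of 0.75 over 13 tumors, which share library preparation and normalization. Tap1 and Tap2 were the most alike (r = 0.99), followed by Tap1 and Psmb9 (r = 0.979) and by Tap2 and Psmb9 (r = 0.977). Tap1 and Psmb9 share the upstream sequence printed above, and its part in their likeness was not tested. H2-T23 was least like the rest, with r of 0.083 to 0.37 to the other members, and Tapbp was intermediate, with r = 0.45 to the mean of the other 9. Oral WT tumor 4 was the highest of all 13 tumors for 8 members, and oral KO tumor 2 was above oral KO tumor 1 for 9 of 10, all but H2-T23. Without oral WT tumor 4 and oral KO tumor 2 the median r was 0.58 over 11 tumors. In a group of 2 both tumors lie equally far from their mean, and without oral WT tumor 4 and both oral KO tumors the median r was 0.51 over 10 tumors.

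**Figure D4:**
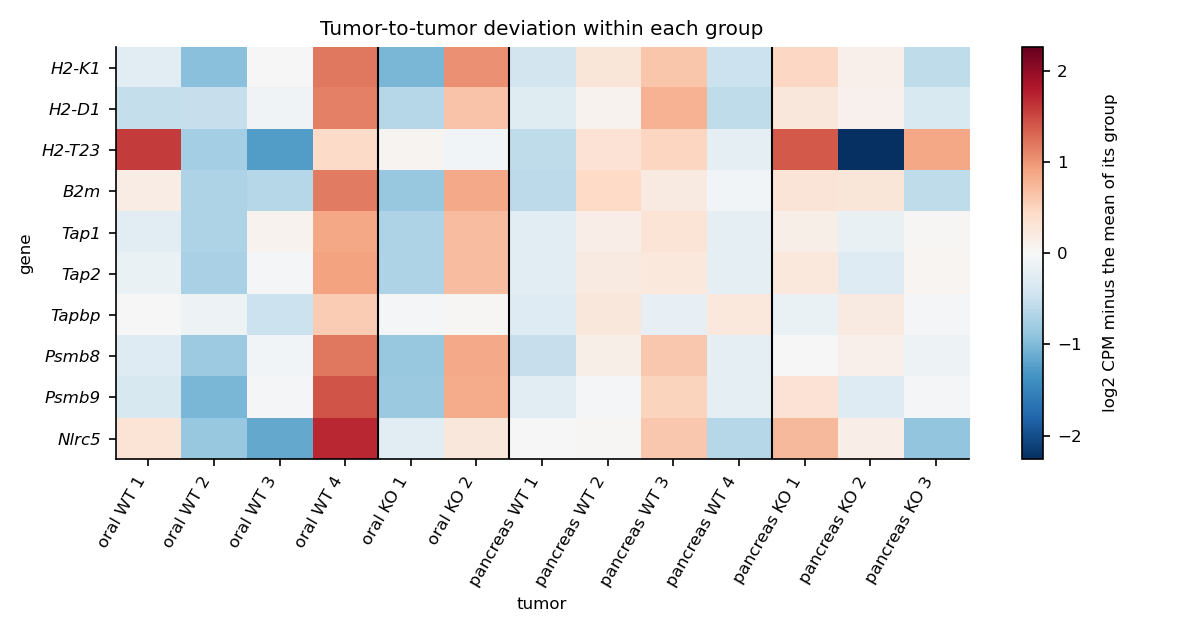
Deviation of each tumor's log2 CPM from the mean of its group, by gene and tumor, with red above and blue below the mean and lines between the 4 groups. Oral WT tumor 4 is red for all 10 genes, and H2-T23 shows the deepest blue, in pancreatic KO tumor 2, while the other genes of that tumor lie near their group mean.

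The protein-coding genes outside the list that followed the members most closely within groups were Bst2, an interferon-inducible protein that tethers virus particles (r = 0.92), the class I heavy chain genes H2-Q6 (r = 0.92) and H2-Q7 (r = 0.92), Ggct, an enzyme of glutathione breakdown (r = 0.92), Chd7, a chromatin remodeller (r = 0.91), Psme1, a subunit of the proteasome activator (r = 0.90), Tmem229b (r = 0.89) and Tmcc1 (r = 0.89), out of 13290 candidates. H2-Q6 and H2-Q7 share 50.3% and 39.1% of their 31-base sequences with other genes. Without oral WT tumor 4 and oral KO tumor 2 these 8 correlations were 0.71 to 0.84, and without both oral KO tumors as well 0.63 to 0.84.

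The rest of the pathway was read from lists of genes with related roles. Of 15 interferon-responsive genes outside antigen presentation, 12 had lower fitted levels in the pancreatic KO tumors, where 47.4% of all genes did. None passed, and 3 passed as lower by the DESeq2 Wald test, where 1143 of all 24653 genes did. The median of the 15 was -0.68 and lay close to the -0.69 of the class I genes. Among them Oasl2, an oligoadenylate synthetase-like protein, was at 14.5 to 23.2 CPM in the pancreatic WT and 4.37 to 12.3 CPM in the KO tumors (-1.25 ± 0.36, adjusted p = 0.155), and Usp18, a brake on interferon signalling, at 2.62 to 9.62 and 0.858 to 2.14 CPM (-1.71 ± 0.52, adjusted p = 0.167). In the oral tumors 11 of the 15 had higher fitted levels in KO, where 50.1% of all genes had lower ones, with a median of 0.22 and none passing. Between the WT tumors 8 of 15 passed as higher in the oral tumors (median 1.62), where 12.1% of all genes did, among them Oasl2 (1.89 ± 0.58, adjusted p = 0.0465) and Igtp, an interferon-inducible GTPase (1.69 ± 0.53, adjusted p = 0.0499). Leaving out each tumor gave 2 (without pancreatic WT tumor 3) to 9 such calls, 3 without pancreatic WT tumor 1, 4 without pancreatic WT tumor 4 and 5 without oral WT tumor 1, 2 or 4, with a median of 0.96 to 1.83. Their summed level was 738 CPM in oral WT tumor 4, the tumor with the highest class I levels, and 157 to 250.3 CPM in the other oral WT tumors. Of 24 regulators of class I genes, 3 passed as higher and 3 as lower in the oral WT tumors, where 12.1% and 11.6% of all genes did. The interferon gamma receptor genes Ifngr1 and Ifngr2 were among the lower ones (-1.16 ± 0.23, adjusted p = 0.00736, and -0.54 ± 0.12, adjusted p = 0.0111), and Irf8, an interferon regulatory factor, among the higher (1.02 ± 0.22, adjusted p = 0.0114). Between genotypes neither receptor gene passed, with fold changes of -1.16 ± 0.33 (adjusted p = 0.0552) and -0.54 ± 0.18 (adjusted p = 0.0784) in the oral and -0.78 ± 0.23 (adjusted p = 0.162) and -0.60 ± 0.11 (adjusted p = 0.0636) in the pancreatic tumors. For both genes all KO tumors lay below all WT tumors of the same site, as 25.5% (oral) and 8.75% (pancreas) of all genes did.

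**Figure D5:**
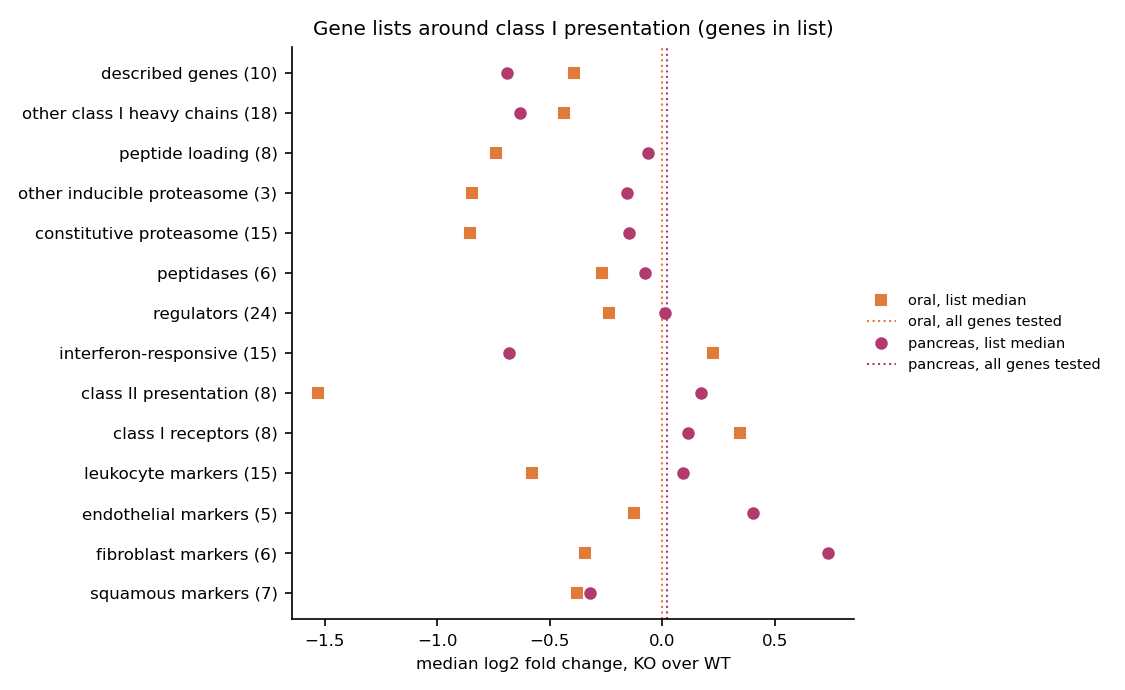
Median log2 fold change of KO over WT for the class I genes and for 13 related gene lists or cell type marker lists, in the oral (squares) and pancreatic (circles) tumors, with the median of all genes tested as dotted lines. In the pancreas the class I genes, the other heavy chains and the interferon-responsive genes lie at -0.63 to -0.69 while peptide loading, proteasome and class II genes lie between -0.16 and 0.17.

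The other class I heavy chains gave a pancreatic median of -0.63, with 13 of the 15 tested lower, where 47.4% of all genes were. None passed, and 4 passed as lower by the DESeq2 Wald test, where 1143 of all 24653 genes did. H2-Q4 had the smallest adjusted p, at 23.8 to 39 CPM in the WT and 9.13 to 15.6 CPM in the KO tumors (-1.22 ± 0.24, adjusted p = 0.0701). In the oral tumors 13 of 16 had lower fitted levels, where 50.1% of all genes did. Of these, 1 passed as lower, H2-M2 (-3.81 ± 0.94, adjusted p = 0.04), where 4.58% of all genes did. It was at 1.24 to 3.61 CPM in the WT tumors and at most 0.273 CPM in the KO tumors. None of this list passed with protein-coding genes alone or without oral WT tumor 1, 2 or 3, and 2 did without oral WT tumor 4. Between the WT tumors 4 of 16 passed as higher in the oral tumors, against 12.1% of all genes, among them Fcgrt, the neonatal Fc receptor heavy chain (1.41 ± 0.30, adjusted p = 0.0106). There were 2 such calls without pancreatic WT tumor 1, 2 or 3, and 2 with class I rows summed.

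Of the 14 lower oral calls over all lists, 3 were in peptide loading and 4 in the constitutive proteasome. In the oral KO tumors 3 of 8 loading genes fell, where 4.58% of all genes did, namely Pdia3, the disulfide isomerase of the loading complex (-1.27 ± 0.25, adjusted p = 0.0272), Bcap31, an export receptor (-0.99 ± 0.21, adjusted p = 0.0313), and Tapbpl, a tapasin-like peptide editor (-1.36 ± 0.30, adjusted p = 0.0329). Of 15 constitutive proteasome subunits 4 fell, Psmb6, Psma4, Psmb2 and Psmb7 (-0.998 to -1.12), and all 15 had lower fitted levels (median -0.85), where 50.1% of all genes did. Lap3, a leucine aminopeptidase, fell as 1 of 6 peptidases (-1.23 ± 0.23, adjusted p = 0.024), and Nfyc, a subunit of the Y box factor, as 1 of 24 regulators (-0.85 ± 0.21, adjusted p = 0.042), a share close to that of all genes. In the pancreas none of these lists held a gene that passed, and their medians lay between -0.15 and 0.01. By the DESeq2 Wald test 2 higher and 15 lower calls were made there over all lists, and 568 and 1143 over all genes. The difference between the tissues passed as negative for 3 of 8 loading genes and 7 of 15 constitutive proteasome genes, where it did for 7.62% of all genes. Of the other inducible proteasome genes, Psme1, Psme2 and Psmb10, none passed in either tissue, the median being -0.85 in the oral and -0.16 in the pancreatic tumors, and the difference passed for Psme1 (-1.05 ± 0.27, adjusted p = 0.0252). The number of oral calls depended on single tumors, the 2 higher and 14 lower calls over all lists becoming 0 and 1 without oral WT tumor 1, none without oral WT tumor 2, 0 and 14 without oral WT tumor 3, 9 and 14 without oral WT tumor 4, 0 and 1 without oral KO tumor 1, and 1 and 1 without oral KO tumor 2. They were 0 and 1 with protein-coding genes alone, 1 and 26 without a count filter, 2 and 37 by the DESeq2 Wald test and 6 and 43 in 1 fit of all tumors. Leaving out each tumor, the median fold change stayed between -0.46 and -1.11 for the loading genes (-0.74 with all tumors) and between -0.67 and -0.97 for the constitutive proteasome.

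Other cell types in the tumors express class I as well, so their markers are given beside it. The 15 leukocyte markers summed to 218 to 373 CPM in the pancreatic WT and 122 to 274 CPM in the pancreatic KO tumors. Of the 11 tested, 6 had higher fitted levels in KO (median 0.09), where 47.4% of all genes had lower ones. Ptprc, the pan-leukocyte phosphatase CD45, was at 106, 35.0, 37.2 and 27.0 CPM in the pancreatic WT and 37.4, 53.1 and 20.8 CPM in the KO tumors. Pancreatic WT tumor 1 had the highest leukocyte sum of the pancreatic WT tumors and their lowest sum of the 8 class II presentation genes, at 180 CPM. It was the lowest pancreatic WT tumor for 7 of the 10 class I genes, which vary together. The part of leukocyte RNA in these levels was not tested. In the oral tumors the sums were 143 to 341 CPM in WT and 170 and 380 CPM in KO, oral KO tumor 1 having the higher sum. That sum was largely S100a8, a calcium-binding protein of neutrophils that inflamed squamous epithelium also makes, at 288 CPM in oral KO tumor 1 and 49.0 CPM in oral KO tumor 2, and the other markers summed to 92.1 and 121 CPM against 134 to 221 CPM in the oral WT tumors. Ptprc was at 27.5 and 29.8 CPM in oral KO tumors 1 and 2 and 16.9 to 31.4 CPM in the oral WT tumors. Of the 15 markers Cd3d, of the T cell receptor complex, rose in the oral KO tumors (2.10 ± 0.47, adjusted p = 0.0338), where 9.2% of all genes did. Cd4 fell there (-2.26 ± 0.56, adjusted p = 0.0414), where 4.58% of all genes did. Among the 8 receptors and co-receptors for class I, 4 could be tested in each tissue and none passed, Cd8a being at 0.216 to 1.31 CPM over all 13 tumors. The 8 class II presentation genes had an oral median of -1.53 and a pancreatic median of 0.17. Of these 8, 1 fell in the oral KO tumors, Ctss, a protease of the class II pathway (-1.99 ± 0.22, adjusted p = 0.0126), against 4.58% of all genes. Fibroblast markers had higher fitted levels for 6 of 6 genes in the pancreatic KO tumors (median 0.74, none passed), where 47.4% of all genes had lower ones. Their sums were 2101 to 3623 CPM against 1118 to 2198 CPM in WT, and their part in the class I values was not tested. Of the other marker lists, none of 5 endothelial and none of 7 squamous markers passed in either tissue, with squamous medians of -0.38 (oral) and -0.32 (pancreas) and endothelial medians of -0.13 and 0.41. In the oral KO tumors 2 of 6 fibroblast markers fell, against 4.58% of all genes. These were Dcn (-3.40 ± 0.53, adjusted p = 0.0196) and Lum (-2.09 ± 0.47, adjusted p = 0.0347), both matrix proteoglycans. Of 5 muscle markers 1 rose, the myosin heavy chain Myh4 (7.40 ± 1.34, adjusted p = 0.0253), against 9.2% of all genes. These oral calls are among those over all lists whose dependence on single tumors is given above.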

How the data were processed

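RNA of 13 whole tumors was sequenced as stranded, ribosomal RNA-depleted libraries. Per the labels and the methods, the authors checked the reads with FastQC 0.12.1, trimmed them with Trim Galore 0.6.10 and quantified them with Kallisto 0.50.0 on GENCODE M23 transcripts. They deposited estimated counts per gene, summed with tximport and not scaled for library size, and 27.3% of the values are not whole. Of 56085 genes listed, 753 were blank. Kallisto divides reads that match several transcripts, so levels of class I heavy chain genes with shared sequence are uncertain. The reads were assigned to transcripts of the reference genome.

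Symbols, positions and exon lengths came from GENCODE M21 on GRCm38, in which 191 of 55332 identifiers had no entry. Groups came from the sample labels. The estimated counts were rounded and fitted in R 4.3.3 with the quasi-likelihood test of edgeR 4.0.16 (TMM, robust, at least 10 counts in at least 2 tumors compared, Benjamini-Hochberg over all genes tested, threshold 0.05). Standard errors are the absolute log2 fold change divided by the square root of F. CPM used 1 TMM scaling of all 13 tumors. For correlations, 2 was the prior count of the log2 CPM. The fits were tested on simulated data in which 200 genes had an absolute log2 fold change of 2. They recovered 42.5% of these in the oral and 71% in the pancreatic comparison, with 5 and 19 false calls. In the interaction 43% were recovered and between WT tumors 74%, with 5 and 4 false calls. Nothing states that the tumors came from separate mice, so p-values measure the spread between these samples.

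The genes and lists were chosen with earlier results of these data known. The genes named are the 10 members, Sox2, at most 4 genes per list with the smallest adjusted p in either tissue and the 8 protein-coding genes most like the members. Genes outside this rule, H2-T22, H2-T10, Ptprc and S100a8, were chosen after their values were seen. Alternatives were DESeq2 1.42.0 size factors and Wald test, no count filter, no robust dispersions, protein-coding genes alone, thinned counts, 1 fit of all tumors, summed class I rows, tumor number as a block and leaving out each tumor, and, chosen after seeing the data, correlations without 2 or 3 tumors and leukocyte sums without S100a8.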

Additional observations from a re-analysis of the deposited data

Results flagged for a closer look

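H2-D1 in the oral WT tumors was picked out because 1 tumor lay far from the others. Its highest tumor, oral WT tumor 4, was at 1415 CPM and the next at 609 CPM, a gap of 0.832 of the range of the group, just above Dixon's limit of 0.829 for 4 samples. It was the only one of 20 groups of 4 tumors tested to pass this limit, and chance gives about 1 in 20. The same tumor was the highest of all 13 for 8 of the 10 genes, and its interferon-responsive genes summed to 738 CPM against 157 to 250.3 CPM in the other oral WT tumors. Its muscle markers summed to 384 CPM against 3.29 to 4.78 CPM in those tumors. The cause was not tested.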

How the results depend on the processing

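The pancreatic direction held for all 10 genes under every alternative tried. Counts of genes that passed moved from 0 to 2 lower in the pancreas, 1 higher in the interaction and 1 lower between WT tumors with the DESeq2 Wald test, and to 1 lower between WT tumors without robust dispersions. Leaving out each tumor gave 0 to 1 higher in the oral tumors, 0 to 1 higher in the interaction (both 1 without oral WT tumor 4, Nlrc5) and 0 to 1 lower between WT tumors (without oral WT tumor 1, H2-T23). The matching counts or shares of all genes are given with these results above. The within-group deviations of same-numbered tumors correlated at -0.080 to 0.317, over too few tumors to settle whether the numbers pair the samples. With the number as a block none of the 10 genes passed in any comparison, while 3 other class I heavy chains and 1 regulator passed as lower in the pancreas. The calls over all genes then fell to 43 higher and 22 lower (oral) and rose to 231 and 499 (pancreas).

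Uncalled values changed sign as follows, and the cause was not tested. With the block, oral changes became 0.17 (H2-K1), 0.14 (H2-D1), 0.25 (Psmb8) and 0.58 (Psmb9), the interaction 0.40 (H2-T23) and the WT difference -0.031 (Nlrc5). The oral Tap1 change of 0.01 became -0.024 with DESeq2 size factors, -0.068 without a filter, -0.025 by the Wald test and -0.055 in 1 fit of all tumors. With class I rows summed, the value in place of H2-T23 was 0.53 (interaction) and 0.65 (WT). With protein-coding genes alone the interaction was 0.00097 (Tap2) and 0.077 (Tapbp), and with thinned counts 0.027 (Tapbp). Leaving out each tumor, oral changes ran from -1.65 to 0.36 (H2-K1), -1.20 to 0.095 (H2-D1), -0.82 to 0.54 (Tap1), -1.36 to 0.29 (Psmb8) and -1.27 to 0.49 (Psmb9). Interaction values ran from -0.79 to 1.22 (H2-K1), -0.53 to 0.81 (H2-D1), -0.83 to 0.45 (H2-T23), -1.49 to 0.16 (B2m), -0.11 to 1.24 (Tap1), -1.06 to 0.29 (Tap2), -0.26 to 0.11 (Tapbp), -0.78 to 0.89 (Psmb8) and -0.71 to 1.09 (Psmb9). WT differences ran from -0.11 to 0.65 (B2m), -0.12 to 0.26 (Tapbp) and -0.46 to 0.71 (Nlrc5). Over all genes the oral calls fell from 2056 higher and 1024 lower to 19 and 8 with protein-coding genes alone and the pancreatic calls rose from 86 and 88 to 568 and 1143 with the Wald test.

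The oral comparison has 2 KO tumors. The lowest count of the described genes in any tumor was 57.8 (H2-T23). Library depth did not overlap between the genotypes at either site. It was lower in the oral KO and higher in the pancreatic KO tumors than in the WT tumors of that site.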
